A study of Homo sapiens with 4 samples.

Results

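The genes examined here encode the cyclins that drive G1 of the cell cycle (CCND1, CCND2, CCND3, CCNE1 and CCNE2), the kinases they activate (CDK4, CDK6 and CDK2) and inhibitors of these kinases (CDKN1B and CDKN2C). They were taken by name from the gene table of MHCC97H cells with and without knockdown of UBXN1, and all 10 were found among its 61541 Ensembl gene IDs. Of the 10 genes, 9 had enough reads to be tested, and CCND2 did not.

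D-type cyclins bind CDK4 and CDK6 early in G1, and E-type cyclins bind CDK2 near the entry into S phase. Both kinds of complex phosphorylate the retinoblastoma protein and its relatives, which frees E2F transcription factors to turn on the genes of DNA replication. CDKN2C (p18) belongs to the INK4 inhibitors, which bind CDK4 and CDK6, whereas CDKN1B (p27) belongs to the CIP/KIP inhibitors and binds cyclin-CDK complexes, with CDK2 as its best known target. In liver tumors the cyclin D1 gene is a known site of amplification.

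MHCC97H is an established human hepatocellular carcinoma (HCC) cell line. RNA of 4 libraries was sequenced, 2 from cells with a control shRNA (shCon, genotype control) and 2 from cells with an shRNA against UBXN1 (shUBXN1, genotype UBXN1 knockdown), with no other treatment, dose or time named. By the methods the hairpins sat in pLKO.1 and the control was called shRFP, whereas the labels write shCon. Which UBXN1 hairpin the sequenced cells carried is not given in the sources used here. Nothing says that the 2 libraries of a group came from separate cultures, so the p-values measure only the spread between these libraries, which may be technical.

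The libraries held 23373700 to 27380508 counts, and counts on the mitochondrial genome made up 5.28% and 5.59% in shCon and 7.43% and 8.27% in shUBXN1. UBXN1 itself, the targeted gene, stood at 67.1 and 77.3 CPM (the reads counted on a gene scaled to a common library size, here with TMM factors) in shCon and at 16.8 and 18.5 CPM in shUBXN1, a log2 fold change of -2.03. Of the 13 hepatocellular markers, 12 passed the filter on low counts. Their summed level was 4398 and 4566 CPM in shCon and 3462 and 4055 CPM in shUBXN1, nearly all of it KRT8 and KRT18. The liver factor gene HNF4A was at 46.9 to 61.8 CPM, whereas the secreted-protein genes were weak (ALB 17.2 to 18.0 CPM in shCon and 4.20 to 4.78 CPM in shUBXN1). By the test described below, 7 of the 12 markers tested fell and 2 rose, where 28.2% of all genes tested fell and 28% rose. Markers of other cell types summed to 155 to 168 CPM, with 7 of 14 tested. Of these 7, 3 rose and 3 fell, to be read against the same shares of all genes. Several were expressed in every library: CD68 at 70.5 to 88.3 CPM, PECAM1 at 33.2 to 43.0 CPM, LUM at 13.9 to 32.3 CPM and CD79A at 8.10 to 21.9 CPM. The T cell gene CD3E was at 0 in every library. The part of these differences in the values of the G1 genes was not tested.

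In shUBXN1 cells 7 of the 9 G1 genes tested changed, 2 rising and 5 falling, and most of the changes were small. CDKN2C fell furthest, to 40.2% of its control level. CDK4, CCND3, CDK2 and CCND1 fell by smaller amounts, whereas CCNE1 and CDKN1B rose. CCNE2 and CDK6 did not pass the test, which was the quasi-likelihood test of edgeR at a threshold of 0.05, with p adjusted by Benjamini-Hochberg over all 16863 genes tested. Of all genes tested 56.2% passed it, 28% higher and 28.2% lower in shUBXN1, so change was common in these libraries and the 7 of 9 are read against that share. The groups did not overlap for the same 7 genes, as for 78% of all genes. On the log2 scale the 9 genes had a median fold change of -0.20, against 0.016 for all genes. CDKN2C alone among them passed the thresholds that the study states for its own comparison, at least 2-fold either way with an unadjusted p under 0.05. These were passed by 17.9% of all genes, 11.8% higher and 6.09% lower. In RNA from a whole culture, a smaller share of cells in a phase and less RNA per cell cannot be told apart.

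**Figure D1:**
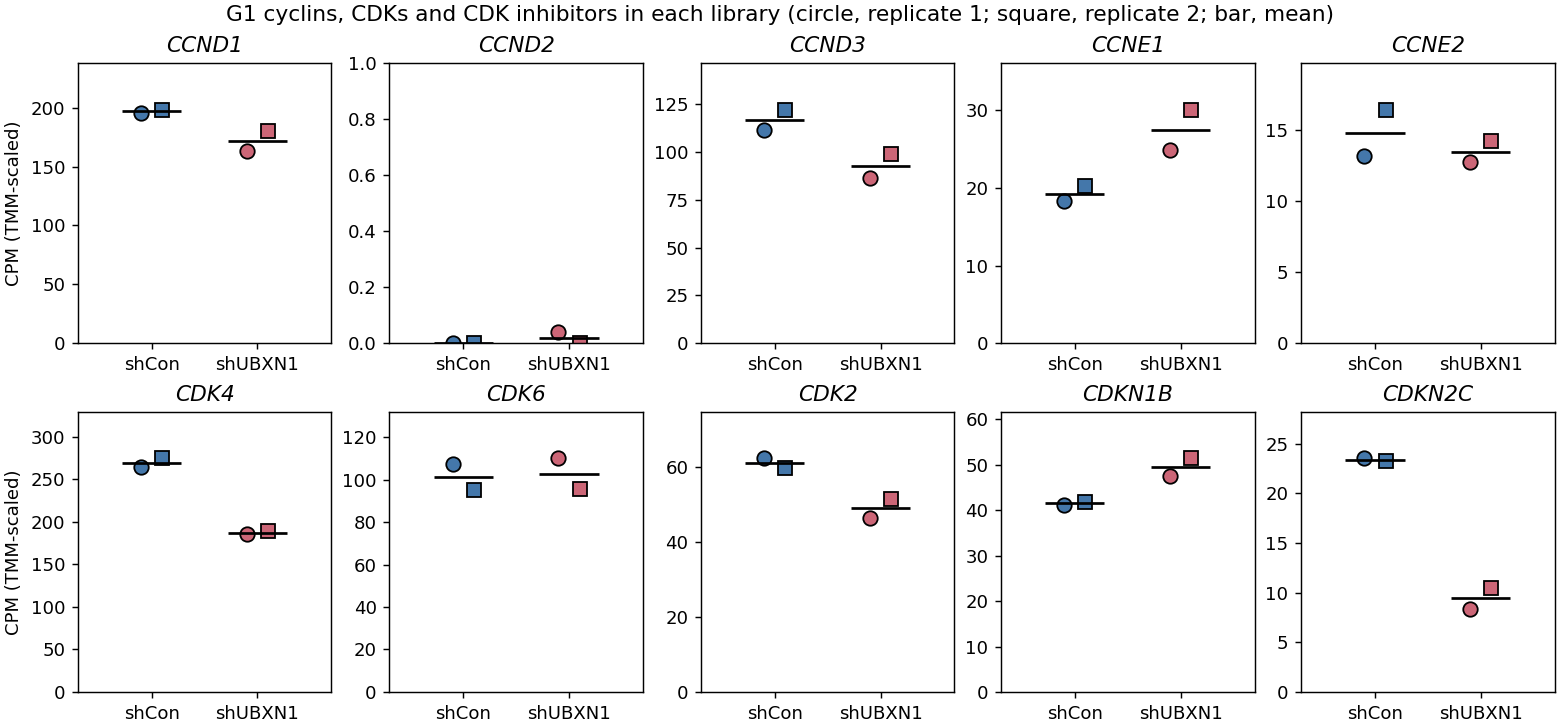
Level of each of the 10 genes in every library, in CPM on linear axes that start at 0, with shCon in blue, shUBXN1 in red and a bar at the mean of the 2 libraries. The groups separate for all but CCND2, CCNE2 and CDK6, and the widest relative gap is that of CDKN2C, at 23.5 and 23.3 CPM in shCon and 8.36 and 10.5 CPM in shUBXN1.

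Both D-type cyclins that could be tested fell slightly. CCND1, cyclin D1 (ENSG00000110092, plus strand, chr11:69641156-69654474 of GRCh38), was at 195 and 198 CPM in shCon and at 163 and 180 CPM in shUBXN1. Both knockdown libraries lay below both controls, by a margin that was about as wide as the gap between the knockdown libraries. Its log2 fold change was -0.20 (SE 0.0763, adjusted p = 0.0384 in edgeR's quasi-likelihood test). The call was lost when libraries were scaled to their total count (-0.12, adjusted p = 0.0948), with at least 10 counts required in every library (-0.17, adjusted p = 0.0527), and without shCon 1 (-0.21), shCon 2 (-0.20) or shUBXN1 1 (-0.13). LTO1 on the opposite strand shares 10.4% of the exon bases of CCND1 and did not pass the test (log2 fold change -0.08, adjusted p = 0.596).

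CCND3, cyclin D3 (ENSG00000112576, minus strand, chr6:41934934-42050357), was at 112 and 122 CPM in shCon against 86.5 and 98.8 CPM in shUBXN1. The groups did not overlap. It fell by 0.33 on the log2 scale (SE 0.0831, adjusted p = 0.0034, edgeR), which is 79.3% of the control level. Without shCon 2 the log2 fold change was -0.28 and missed the threshold (adjusted p = 0.086). CCND2, cyclin D2 (ENSG00000118971, plus strand, chr12:4269771-4305353), was at 0 counts in both shCon libraries, at 1 count in shUBXN1 1 and at 0 in shUBXN1 2. All 4 values lie under the limit of 3 counts that a count of 0 allows, which is 0.113 to 0.128 CPM in these libraries, for counting error only. Counts assigned to CCND2 were therefore not above this limit in either group, and no fold change is given. The gene ENSG00000285901 on the same strand shares 12.5% of its exon bases and was at 1.23 CPM or more in both shCon libraries and at 0 and 1.41 CPM in shUBXN1, so reads of these genes may have been divided, and the CCND2 value is uncertain to that extent.

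Of the E-type cyclins, CCNE1 rose and CCNE2 did not pass the test. CCNE1, cyclin E1 (ENSG00000105173, plus strand, chr19:29811991-29824312), was at 18.3 and 20.2 CPM in shCon and at 24.9 and 30.1 CPM in shUBXN1. Both knockdown libraries stood above both controls, and they differed more from each other than the controls did. CCNE1 rose by 0.51 on the log2 scale (SE 0.112, adjusted p = 0.00135, edgeR), a fold change of 1.43 with a 95% interval of 1.21 to 1.69. The rise passed the threshold under every alternative tried, with values from 0.36 to 0.64. CCNE1 is the member that rose most, and the 250 bases before its RefSeq start are shown because they hold 7 copies of the GC box GGGCGG or its reverse complement, in capitals (plus strand, chr19:29811741-29811990, GRCh38.p14).
CCNE1: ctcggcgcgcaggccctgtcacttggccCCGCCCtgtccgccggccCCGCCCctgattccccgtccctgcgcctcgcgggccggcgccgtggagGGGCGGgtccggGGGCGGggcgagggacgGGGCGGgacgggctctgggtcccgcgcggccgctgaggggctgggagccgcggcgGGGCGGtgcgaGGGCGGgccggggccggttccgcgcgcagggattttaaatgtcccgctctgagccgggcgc

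CCNE2, cyclin E2 (ENSG00000175305, minus strand, chr8:94879770-94896678), was at 13.1 and 16.4 CPM in shCon and at 12.7 and 14.2 CPM in shUBXN1. The groups overlapped. Its log2 fold change of -0.13 (SE 0.135, adjusted p = 0.431, edgeR) had a 95% interval that ran from 0.747 to 1.12 times the control level. Without shCon 2 its sign turned, to 0.02. INTS8 on the opposite strand shares 37% of the exon bases of CCNE2 and was the stronger gene, at 109 CPM in both shCon libraries and 71.2 and 75.4 CPM in shUBXN1. It fell by 0.57 on the log2 scale (adjusted p = 1.32e-05, edgeR). Whether the counting used strand is not given in the sources used here, and the part of INTS8 in the value of CCNE2 was not tested.

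Of the kinases that bind D cyclins, CDK4 fell and CDK6 did not pass the test. CDK4 (ENSG00000135446, minus strand, chr12:57747727-57756013) was at 265 and 275 CPM in shCon and at 186 and 189 CPM in shUBXN1. The spread within either group was much smaller than the distance between them. The fall of 0.53 on the log2 scale (SE 0.0726, adjusted p = 2.72e-05, edgeR) left 69.5% of the control level, and it passed the threshold under every alternative, with log2 fold changes between -0.57 and -0.44. TSPAN31, a tetraspanin gene on the opposite strand that shares 44.2% of the exon bases of CDK4, moved the other way, from 13.0 and 10.9 CPM in shCon to 29.7 and 33.0 CPM in shUBXN1 (log2 fold change 1.39, adjusted p = 1.77e-07, edgeR). Its level was under that of CDK4 in every library, and its part in the value of CDK4 was not tested.

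The promoter of CDK4 held 3 copies of the E-box CACGTG, the letters that MYC family proteins are known to bind, at 216, 196 and 101 bases before its RefSeq start. A stretch with the first and second of them in capitals is shown because CDK4 was the most abundant of the members and fell (minus strand, chr12:57752448-57752560, GRCh38.p14). The remaining 137 of the 250 bases lie in an annotated exon and are not printed.
CDK4: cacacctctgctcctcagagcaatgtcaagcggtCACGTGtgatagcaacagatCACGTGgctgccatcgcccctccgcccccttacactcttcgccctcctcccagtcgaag

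CDK6 (ENSG00000105810, minus strand, chr7:92604921-92836573) was at 107 and 95.2 CPM in shCon and at 110 and 95.4 CPM in shUBXN1. The libraries numbered 1 were high and those numbered 2 low in both groups, and the groups overlapped almost fully. The log2 fold change was 0.02 (SE 0.0868, adjusted p = 0.858, edgeR) with a 95% interval of -0.17 to 0.21, which leaves a change of about 0.892 to 1.15 times the control level possible. Its sign turned without shCon 2 (-0.08) and without shUBXN1 1 (-0.09). The difference between the changes of CDK4 and CDK6 was not itself tested.

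CDK2, the partner of E-type and A-type cyclins (ENSG00000123374, plus strand, chr12:55966781-55972789), was at 62.4 and 59.9 CPM in shCon and at 46.6 and 51.5 CPM in shUBXN1. Both knockdown libraries were below both controls. It fell by 0.32 on the log2 scale (SE 0.0801, adjusted p = 0.00355, edgeR), to 80.1% of the control level, and this call was kept under every alternative (-0.41 to -0.24). A lncRNA gene on the opposite strand, ENSG00000258554, shares 14.5% of its exon bases and had no counts in any library.

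The inhibitors moved in opposite directions. CDKN1B, p27 (ENSG00000111276, plus strand, chr12:12685498-12722369), was at 41.3 and 41.8 CPM in shCon and at 47.6 and 51.4 CPM in shUBXN1. The controls were nearly alike, and both knockdown libraries lay above them. CDKN1B rose by 0.25 on the log2 scale (SE 0.0802, adjusted p = 0.0144, edgeR), 1.19 times the control level. The call was lost in DESeq2 (0.25, adjusted p = 0.0503) and without shCon 1 (0.25), shCon 2 (0.25) or shUBXN1 2 (0.18). Its rise was the smaller of the 2 rises among the members.

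CDKN2C, p18 (ENSG00000123080, plus strand, chr1:50960745-50974634), was counted 627 and 547 times in the controls and 207 and 245 times after knockdown, that is 23.5 and 23.3 CPM against 8.36 and 10.5 CPM. The controls differed by under 1 CPM, and the higher knockdown library was still below them by more than the spread within either group. The log2 fold change was -1.32 (SE 0.126, adjusted p = 7.91e-07, edgeR), a level 2.49-fold lower with a 95% interval of 0.333 to 0.485 times the control. It was larger in size than the change of 87.9% of all genes tested. The values ran from -1.50 to -1.15 over all alternatives, every one of them past both thresholds. A lncRNA gene on the opposite strand, ENSG00000290102, shares 20.4% of its exon bases and is not in the table used here. Several RefSeq starts of CDKN2C were at hand. Those not printed held further matches, among them GC boxes and an E-box 69 bases before the start. The 250 bases before the first RefSeq start are shown because this member changed most. They held 1 E-box, in capitals, 220 bases before that start (plus strand, chr1:50960495-50960744, GRCh38.p14).
CDKN2C: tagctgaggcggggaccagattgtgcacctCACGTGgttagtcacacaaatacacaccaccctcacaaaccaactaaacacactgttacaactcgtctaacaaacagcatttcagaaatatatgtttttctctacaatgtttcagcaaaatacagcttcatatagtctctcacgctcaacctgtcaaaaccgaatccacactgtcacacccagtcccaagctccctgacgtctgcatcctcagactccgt

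**Figure D2:**
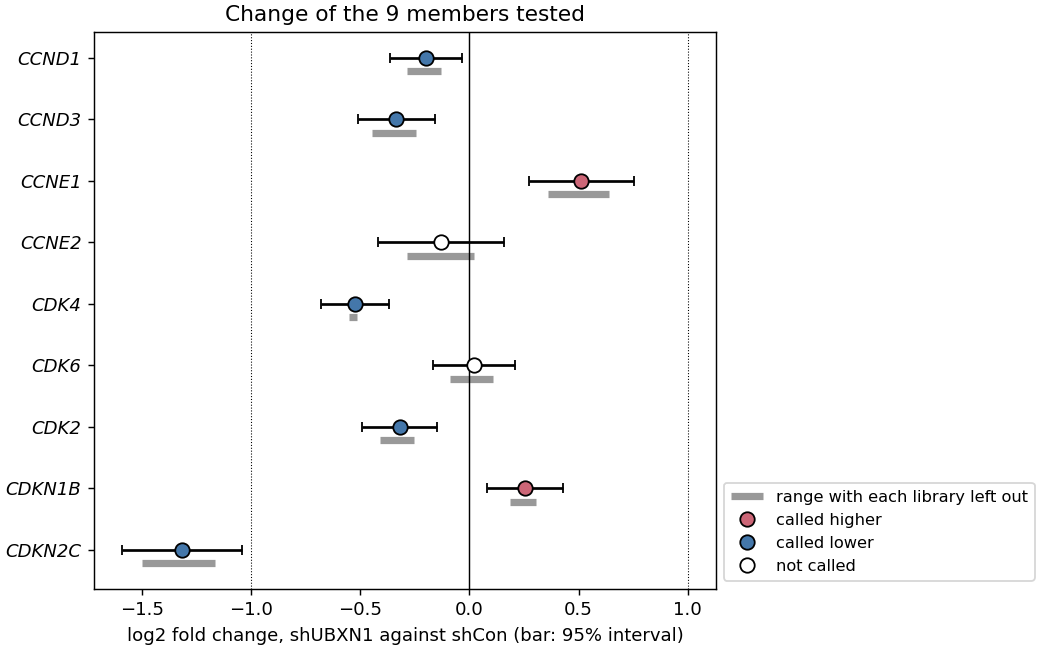
Log2 fold change of the 9 genes tested (points, red where called higher, blue where called lower, white where not called) with the 95% interval, and below each the range with 1 library left out at a time (grey). CDKN2C alone lies past the dotted line at a 2-fold fall, and the grey ranges of CCNE2 and CDK6 cross 0.

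RefSeq promoters were at hand for 6 of the 10 genes (CCND3, CCNE1, CDK4, CDK6, CDKN1B and CDKN2C), some with several starts, and 7 motifs were searched on both strands in the 250 bases before the start. A gene was counted when any of its starts held the motif, whereas the shares of all promoters count each start singly. The counts of genes and these shares are therefore not in like units. The GC box, a site of SP family factors, was found in all 6 genes, though not at every start, and in 42.6% of 35116 promoters. The E-box was found in CDK4 and CDKN2C and in 6.34% of all promoters. The CCAAT box (CCAAT) stood in CCND3, CDKN1B and CDKN2C and in 32% of all promoters. Sites of E2F factors were searched as TTTCCCGC, TTTCGCGC, TTTGCCGC or TTTGGCGC, found in 2.79% of all promoters and in none of the 6 genes, and as TTCCCGCC, TTCGCGCC, TTGCCGCC or TTGGCGCC, found in 5% of all promoters and in 1 start of CDKN2C, 132 bases before it. Those forms overlap in their letters. Among 13 genes of DNA replication known as E2F targets, 7 held the first form and 8 the second. The cAMP response element TGACGTCA (1.65% of all promoters) and the cell cycle homology region TTTGAA (13.3%) were in none of the 6 genes. The motifs were chosen with matches already seen, and a match is a string of letters, not a shown site.

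Levels were compared between genes per length, as TPM from the deposited gene lengths. In shCon the order by mean TPM was CDK4 (290), CCND3 (116), CCND1 (93.1), CDKN1B (92.8), CDK2 (71.1), CCNE1 (19.8), CDK6 (17.5), CDKN2C (16.2) and CCNE2 (11.1). CCND1 and CDKN1B did not differ beyond their spread, nor did CDK6 and CDKN2C. In shUBXN1 the order differed in that CDKN1B (115) stood above CCND3 (95.4) and CCND1 (84.4), and CDKN2C (6.75) fell below CCNE2 (10.5). The deposited length is that of 1 transcript per gene, however, and for CDKN1B it is 897 bases against 2411 in the canonical transcript, for CDKN2C 2904 against 995, and for CDK2 1725 against 2240. With canonical lengths, a setting added after seeing the data, the shCon means were 34.5 TPM for CDKN1B, 47.2 TPM for CDKN2C and 54.8 TPM for CDK2, so that CDKN1B then stood below both. In shUBXN1 the canonical lengths gave 42.9 TPM for CDKN1B, below CCND3 and CCND1, and 19.7 TPM for CDKN2C, above CCNE2. Both changes of order named above therefore depended on the length used. With canonical lengths the order changed at another place. CDKN2C stood above CDKN1B and CCNE1 in shCon and below both in shUBXN1, where CCNE1 was at 29.3 TPM. The deposited and canonical lengths of the other members were the same or nearly so.

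The make-up of each family was computed per library. CCND1 made up 45.6% and 43.7% of the D-cyclin TPM in shCon and 47.4% and 46.6% in shUBXN1, with CCND3 the rest apart from a trace of CCND2. CCNE1 made up 65.7% and 62.8% of the E-cyclin TPM in shCon and 72.8% and 74.4% in shUBXN1. CDK6 was 6.11% and 5.27% of the sum of CDK4 and CDK6 in shCon, and 8.69% and 7.49% in shUBXN1. The groups did not overlap in any of the 3 families. For the CPM of single genes they did not overlap for 78% of all genes tested. That is an unlike measure, and no such background was computed for shares within families. The summed TPM of the D cyclins was 206 and 211 in shCon and 176 and 184 in shUBXN1, a ratio of means of 0.862. For CDK4 with CDK6 it was 308 and 307 against 236 and 221, a ratio of 0.743. For the E cyclins it was 29.1 and 32.6 against 38.0 and 41.6, a ratio of 1.29. With 2 libraries against 2, the exact permutation test has 6 arrangements and cannot give a p below 0.333, and no test of these shares was run.

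**Figure D3:**
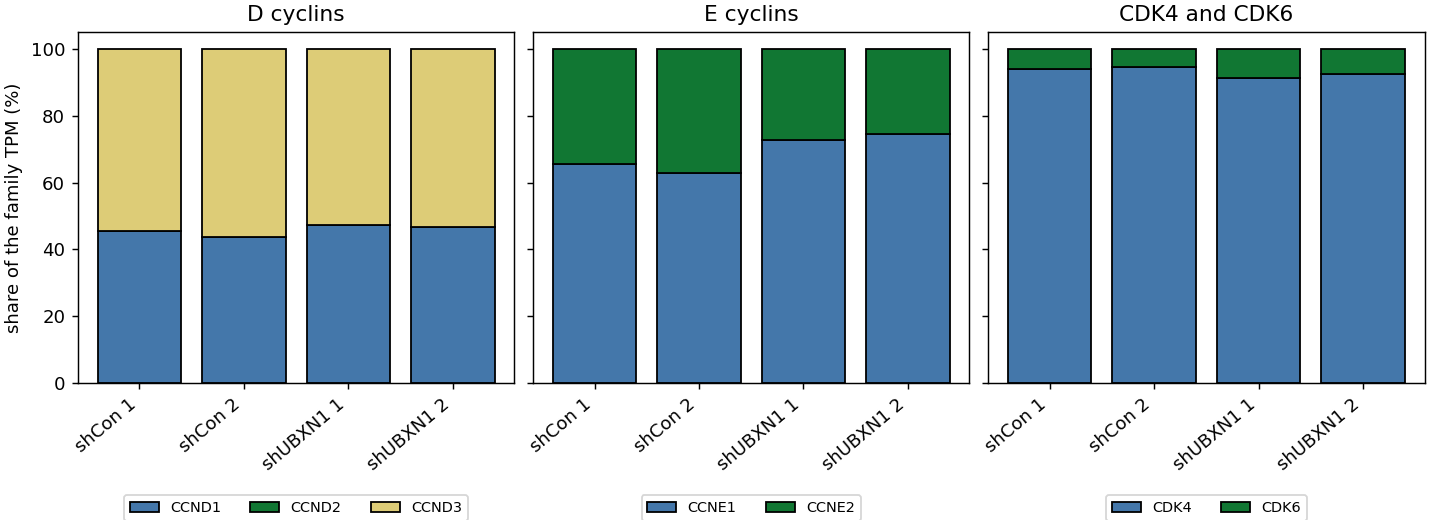
Share of each gene in the summed TPM of its family (percent, stacked to 100) in each of the 4 libraries. CCNE1 takes 62.8% to 65.7% of the E cyclins in shCon and 72.8% to 74.4% in shUBXN1, while the make-up of the D cyclins moves little.

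CDKN1B was 85.0% and 85.3% of the summed TPM of CDKN1B and CDKN2C in shCon and 94.9% and 94.1% in shUBXN1. With canonical transcript lengths these shares were 42.0% and 42.5% against 70.2% and 67.0%. On either length scale the share of CDKN1B was higher in both knockdown libraries, but which inhibitor was the more abundant in shCon depended on the length used.

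Other genes that act on the G1 kinases moved both ways. Of 5 other CDK inhibitor genes, 3 rose and 1 fell (log2 fold change -0.40), where 28% of all genes rose and 28.2% fell. Their median log2 fold change was 0.48. CDKN1A (p21), a target of p53, had a log2 fold change of 0.48 (22.8 and 24.4 CPM in shCon, 32.3 and 33.4 CPM in shUBXN1, adjusted p = 0.000507, edgeR). CDKN1C (p57) and CDKN2D (p19) had 0.69 and 0.83, from lower levels of 4.21 to 6.81 CPM in shCon.

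Among 12 genes for the turnover of G1 cyclins and p27, 4 fell, 1 rose and 7 did not pass the test (median -0.13), a share of changed genes under the 56.2% of all genes. SKP2, the F-box protein that marks p27 for degradation, fell from 30.9 and 28.9 CPM to 11.8 and 11.5 CPM, a log2 fold change of -1.36 (SE 0.105, adjusted p = 9.5e-08, edgeR). AMBRA1 and FBXO31, adaptors of ubiquitin ligases for D-type cyclins, fell by 0.56 and 0.54 on the log2 scale, and UBAC1, a subunit of a ligase for p27, rose by 0.33. Of the FOXO genes, whose products are known activators of CDKN1B, FOXO3 rose by 0.29 (adjusted p = 0.00456, edgeR), and the log2 fold changes of FOXO1 (0.33) and FOXO4 (0.17) did not pass. These values are of RNA, and the turnover of the proteins was not measured here.

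Of 7 genes for the CDK-activating kinase, the CDC25 phosphatases and WEE1, 3 fell and 1 rose (median -0.17), a share close to the 56.2% of all genes that changed. CDC25B fell by 0.39 on the log2 scale, and CCNH and MNAT1, subunits of the CDK-activating kinase, fell by 0.35 and 0.33. WEE1, which puts inhibitory phosphate on CDKs, rose by 0.30. The kinase CDK7 itself (-0.17), CDC25A (-0.09) and CDC25C (-0.12) did not pass the test.

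Genes downstream of the G1 kinases mostly fell. Of 13 genes for pocket proteins, E2F factors and their partners, 9 fell and 3 rose (median -0.24), against 28.2% of all genes that fell and 28% that rose. E2F4 fell by 1.60, E2F2 by 1.41 and E2F8 by 1.39 on the log2 scale, and the 3 that rose had log2 fold changes from 0.38 (E2F6) to 0.82. All 16 E2F target genes of S phase on the list fell, with a median of -0.78. RRM2, a subunit of ribonucleotide reductase, and the replication licensing factor CDT1 both had a log2 fold change of about -1.18. All 5 tested genes for the cyclins of S, G2 and M and their kinase CDK1 fell, with a median of -1.07. CCNB1 fell from 158 and 149 CPM to 60.8 and 66.0 CPM, and CCNA2, the later partner of CDK2, from 88.4 and 85.4 CPM to 38.2 and 44.5 CPM. CCNA1 was at 0 in every library. The number of cells in each phase was not measured in these data, and its part in these values was not tested.

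Of 21 cyclin and CDK genes outside the G1 machinery, 3 rose, 6 fell and 12 did not pass the test, a share of changed genes under the 56.2% of all genes. Their median was -0.0155, and its sign turned under total count scaling (0.0688). CDK18, CCNG2 and CCNL2 rose most, by 4.01-fold, 1.99-fold and 1.33-fold, and CCNK, a partner of the transcription kinases CDK12 and CDK13, fell most (log2 fold change -1.54), followed by CDK16 (-0.99) and CDK10 (-0.80). Against these lists, the 9 G1 genes tested had a median of -0.20 and a range from -1.32 to 0.51.

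**Figure D4:**
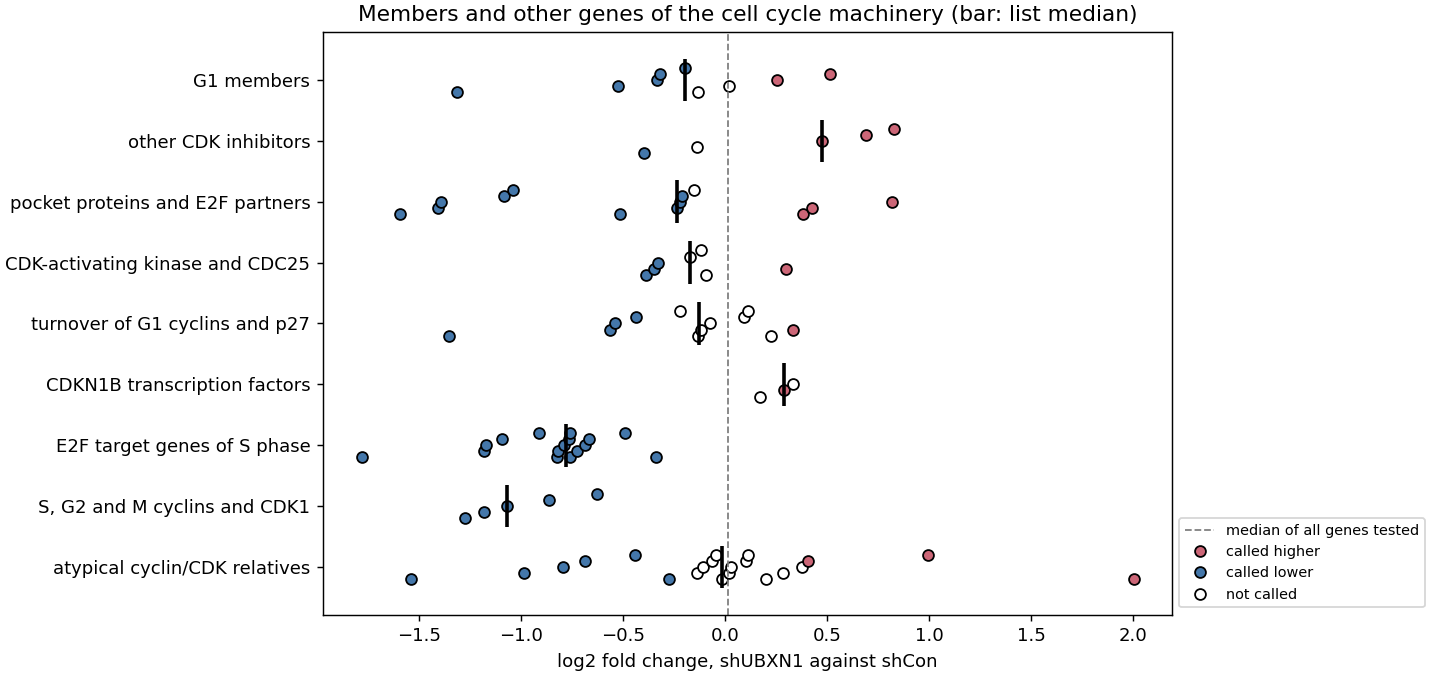
Log2 fold change of each tested gene in 9 lists of the cell cycle machinery, 1 point per gene (red called higher, blue called lower, white not called), with a black bar at the median of the list and a dashed line at the median of all genes tested (0.016). All 16 E2F target genes of S phase and all 5 cyclin and CDK1 genes of S, G2 and M lie to the left, whereas the G1 genes lie on both sides.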

How the data were processed

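RNA-seq of 2 shCon and 2 shUBXN1 libraries of MHCC97H cells was used. The authors deposited expected counts per gene, not normalized, with a gene length. Their methods name Hisat2, GRCh38, TPM and limma, whereas the submitters' processing notes name GRCh37, HISAT2 2.0.4 and StringTie 1.3.0. The counting tool, the annotation release and the use of strand are not given in the sources used here. Of the gene IDs, 99.7% matched a GENCODE symbol, and 96.9% of the deposited lengths equalled that of a GENCODE transcript. Positions are those of GENCODE on GRCh38, since the table holds none.

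The expected counts were rounded and, for 16863 genes that passed filterByExpr, scaled by TMM in edgeR 4.0.16 (R 4.3.3), whose glmQLFit and glmQLFTest gave the main test, with Benjamini-Hochberg adjustment over all genes. The SE is the log2 fold change over the square root of F. The fit had no block and left 2 residual degrees of freedom, and the biological coefficient of variation was 0.0711. TPM came from unrounded counts and deposited lengths. Alternatives were DESeq2 1.42.0, limma 3.58.1 (voom, and log2(TPM + 1)), other scalings and filters, unrounded counts, a GC correction, a replicate block and leaving out each library. The fit was tested on simulated data, where 47 of 100 genes given a log2 change of 0.5 were called. With a change of 1, 70 of 100 were called, as were 4 of 16663 unchanged genes. Far fewer genes changed there than in the data, so these shares need not hold for the data. The 2 libraries of a group differed beyond counting noise (chi-square over its degrees of freedom 3.83 in shCon and 8.42 in shUBXN1).

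The members and gene lists were chosen with earlier results of these data known. All members were named, and from each list up to 3 called genes with the largest change in each direction, or any gene of a list of up to 7. Levels of marker genes were given to check the cell line. A few genes of the lists are given by counts only.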

Additional observations from a re-analysis of the deposited data

How the results depend on the processing

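The changes of CDKN2C, CDK4, CCNE1 and CDK2 kept their direction and stayed past the threshold under all 15 alternatives. Of 135 pairs of a member and an alternative, 122 kept direction and side of the threshold, 10 lost the call and 3 turned sign. CDKN1B was not called in DESeq2 (0.25), so that 1 member was called higher there in place of 2. CCND1 was not called under total count scaling (-0.12) or with at least 10 counts in every library (-0.17). With 1 library left out at a time, where the lone library of a group is assumed to vary like the others, 1 to 2 members were called higher and 3 to 5 lower. The log2 fold change of CCND1 then ran from -0.29 to -0.13, that of CCND3 from -0.45 to -0.24 and that of CDKN1B from 0.18 to 0.31. For CCNE2 the range was -0.28 to 0.02, and it was positive without shCon 2 (0.019). CDK6 ran from -0.09 to 0.11, and was at -0.078 without shCon 2 and -0.090 without shUBXN1 1. The median of the cyclin and CDK genes outside the G1 machinery turned positive under total count scaling (0.0688), after GC correction (0.0138) and without shCon 1 (0.0183) or shUBXN1 1 (0.0219), and ran from -0.0767 to 0.0219 with 1 library left out. The cause of these changes was not tested.

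Total count scaling moved the median of all genes from 0.016 to 0.10. Canonical transcript lengths, chosen after seeing the data, gave a rise of 26.3 percentage points in the share of CDKN1B among CDKN1B and CDKN2C. Replicate numbers come from the labels, and libraries of the same number did not deviate together (r = 0.0393 across 16863 genes, which are not independent replicates), so they are not shown to be pairs. With a replicate block 5000 genes were called higher and 5023 lower, 2 and 5 of them members, against 4727 and 4751 without it, and the block changed no call of a member. At this depth CCND2 stayed under the limit that a count of 0 allows and could not be compared.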
